A study of Homo sapiens with 16 samples.

Results

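Cytosolic ribosomal proteins are the protein parts of the ribosomes that work in the cytoplasm, and 82 of the 16558 genes in the deposited table belong to them. They were chosen by symbol: RPL or RPS with a number, with or without a closing A, X, L or L1, together with RPSA, RPLP0, RPLP1 and RPLP2, and without pseudogenes. Of the 82, 50 encode large-subunit proteins and 32 encode small-subunit proteins, in each case with paralogs included. RPL10L and RPL39L were not analysed here. RNA was sequenced in 8 numbered edited lines of HepG2, an established line from a human liver tumour with many traits of hepatocytes, and these lines are called clones here. They had been prime edited at the codon of the I148M variant of PNPLA3, a lipid droplet protein. There were 3 GG clones (numbers 1, 2 and 6), which carry 2 copies of the allele encoding the M form, 3 heterozygous GC clones (2, 3 and 4) and 2 CC clones (1 and 3). Each clone gave 1 library after 250 µM palmitic acid, a saturated fatty acid, and 1 control library without it, so each replicate is 1 clone. The protocol gives 48 h of treatment, whereas the labels of single libraries run from 48 to 55 h. What the control cells received in place of palmitic acid is not stated in the sources used here. The design asks how each genotype responds to palmitic acid.

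The ribosome reads mRNA on its small subunit and joins amino acids on its large subunit, and each holds 1 copy of most of its proteins, so cells make these proteins in nearly equal amounts. Most of the mRNAs begin with a run of pyrimidines, the terminal oligopyrimidine (TOP) motif, through which mTORC1 and LARP1 adjust their translation and stability together. In hepatocytes and liver cancer cells, ribosome production follows nutrient supply and growth, and several of the proteins also act outside the ribosome, for example on p53 through MDM2.

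The TOP run is the sequence that sets this family apart, so the start sites of the members with calls or with the highest or lowest values in the comparisons are shown first. RPS2, also among them, is named only. Each line holds 15 bases before and 15 bases from the annotated start of transcription, taken from RefSeq on GRCh38.p14, and capitals mark the longest run of C and T that reaches within 5 bases of the start, which is the first base after those 15. RPL26L1, RPS27L and RPL22L1 are paralogs, placed under their parent genes RPL26, RPS27 and RPL22 for comparison.
RPLP0 (chr12:120201097-120201126, minus strand): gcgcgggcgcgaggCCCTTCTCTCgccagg
RPL13A (chr19:49487593-49487622, plus strand): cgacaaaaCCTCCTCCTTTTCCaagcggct
RPL18 (chr19:48619164-48619193, minus strand): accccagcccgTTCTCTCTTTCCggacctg
RPL24 (chr3:101686704-101686733, minus strand): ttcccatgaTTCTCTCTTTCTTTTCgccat
RPL27 (chr17:42998404-42998433, plus strand): ccggggtgaaaggTTagcggaagtgtcctt
RPS9 (chr19:54200843-54200872, plus strand): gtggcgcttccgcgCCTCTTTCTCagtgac
RPL35A (chr3:197950175-197950204, plus strand): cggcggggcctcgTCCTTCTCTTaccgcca
RPL39 (chrX:119791616-119791645, minus strand): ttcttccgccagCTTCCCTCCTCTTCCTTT
RPS21 (chr20:62387088-62387117, plus strand): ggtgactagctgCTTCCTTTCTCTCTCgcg
RPS23 (chr5:82278340-82278369, minus strand): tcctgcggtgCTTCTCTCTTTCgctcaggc
RPS26 (chr12:56041903-56041932, plus strand): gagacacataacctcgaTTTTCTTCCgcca
RPS29 (chr14:49598696-49598725, minus strand): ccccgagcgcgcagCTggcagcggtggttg
RPL26 (chr17:8383179-8383208, minus strand): aagcagcgtgtagTTCTCTTCCCTTTTgcg
RPL26L1 (chr5:172958714-172958743, plus strand): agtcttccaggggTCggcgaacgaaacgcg
RPS27 (chr1:153990747-153990776, plus strand): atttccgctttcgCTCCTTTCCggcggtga
RPS27L (chr15:63157463-63157492, minus strand): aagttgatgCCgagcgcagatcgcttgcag
RPL22 (chr1:6199581-6199610, minus strand): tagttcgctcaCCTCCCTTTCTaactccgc
RPL22L1 (chr3:170870181-170870210, minus strand): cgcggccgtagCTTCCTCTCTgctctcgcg

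RPL27, RPS29, RPL26L1 and RPS27L had runs of 2 pyrimidines at the start shown. The other members shown had runs of 9 to 22, and that of RPL39, the longest, goes on past the printed bases. A promoter window, 250 bases before to 50 bases after the start, was matched by symbol for 66 of the 82 members. Of the 66, 50 (75.8%) had a run of at least 8 pyrimidines reaching within 5 bases of the start, against 15.4% of the 11686 genes of the table with such a window. The median run was 11 bases in the members and 4 in all those genes, with the longest run taken where several starts are listed. The longest, 25 bases, lay at RPL7A, and RPL9 and RPL4 had the shortest, 1 base. Short words were counted on both strands of the same windows, and any of them can overlap another or the run. CTTTCC was in 47% of the members and 32.3% of all genes, CTTCCGG in 36.4% and 19.9%, and TCGCGAGA in 18.2% and 2.53%. These matches describe letters in a window and do not show that a factor binds there. Runs depend on the listed starts, and which starts these cells use was not tested. A short run here therefore does not show that an mRNA lacks the TOP motif.

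Values are the authors' normalized counts, close to CPM, and are called units here. Whole reads could be recovered from these values, 9314342 to 15777669 per library over the genes of the table. Every member except RPL3L had at least 107 reads in each library. Members share sequence with processed pseudogenes and paralogs, and the counting tool divides such reads by estimate, so the levels of single members carry that uncertainty. The 26 ribosomal protein pseudogenes in the table summed to 78.7 to 147 units, at most 0.286% of the members' own sum. The liver line's own markers were present in all libraries (AFP 2595 to 18690 units, APOB 9253 to 21430, HNF4A 231 to 508). Of 8 markers of other liver cells, 5 were in the table and 4 passed the filter: COL1A1 had at most 1.84 units and was listed at 0 in some libraries, COL3A1 at most 2.51, PECAM1 at most 18.2, CD68 at most 19.9 and EPCAM at most 88.8. Expression of PNPLA3 does not check a single edited base. Clones were clearly unlike one another, and the control library of GG clone 2 stood apart for the ribosomal proteins. The interquartile range of the members' log2 deviations from their own means was 0.50 there and 0.15 to 0.29 in the other 15 libraries. Values of named members and medians that leaving out that clone moves by over 1.5 times are given without it too.

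Ribosomal protein mRNAs took 4.34 to 6.13% of the recovered reads of all genes in the table. With palmitic acid the share was 4.94 ± 0.604% in GG, 5.40 ± 0.592% in GC (SD, n = 3 clones each) and 4.62 ± 0.115% in CC (SD, n = 2), and in control it was 5.25 ± 0.234% for GG, 5.69 ± 0.570% for GC and 5.02 ± 0.0368% for CC. The share was lower with palmitic acid than in the matched control in 7 of 8 clones. The difference was largest in GG clone 2, with 4.34% after palmitic acid and 4.98% in control. In GG clone 6 it was 5.55% after palmitic acid and 5.36% in control. The ranges of treated and control libraries overlapped. This share is of recovered reads, without scaling between libraries, and reads outside the genes of the table are not in it. Summed in units, the members with palmitic acid over control ran from 0.864 in GG clone 2 to 1.07 in GG clone 6. The ratio was 0.996 in GC clone 4 and 0.990 in CC clone 3. In CC clone 3, 47 tested members were higher with palmitic acid and 34 lower. Large-subunit mRNAs summed to 1.41 to 1.53 times the small-subunit sum in every library. In bulk RNA, fewer cells and less RNA per cell cannot be told apart, and a share says nothing of the ribosomal protein mRNA in 1 cell.

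**Figure D1:**
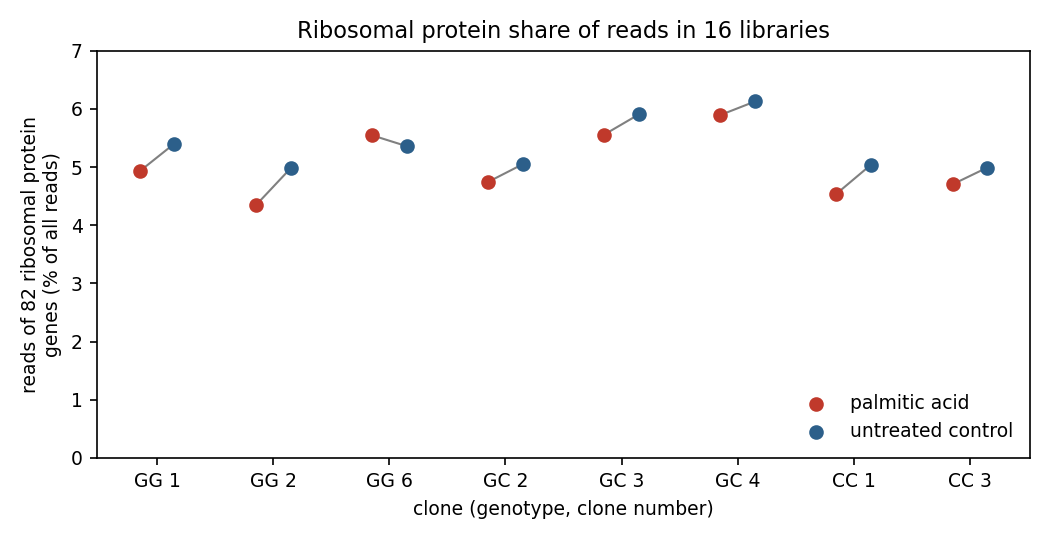
Share of all reads recovered from the table (%, linear axis from 0) taken by the 82 ribosomal protein genes in each of 16 libraries. The palmitic acid library is left of the untreated control library of the same clone, with a line joining them. The share is lower with palmitic acid in 7 of 8 clones, and GC clone 4 has the highest values, 5.89% with palmitic acid and 6.13% in control.

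Levels between genes can be compared only per length. The length used was that of the best-ranked complete coding mRNA in the annotation. Among several, the longest coding part was taken first and then the shortest mRNA. Per kilobase, RPL41, the smallest of the proteins, had 1987 units, RPS2 1984, RPL39 1848, RPLP0 1692 and RPS18 1605. The lowest were RPL3L at 0.0904, RPL22L1 at 7.83 and RPS27L at 11.9 units per kilobase. The annotated mRNA of RPS27L is 6434 bases long, which lowers its value. RPL7L1 followed with 18.9 and RPL26L1 with 20.3 units per kilobase, so that the 5 lowest members were all paralogs of other members. This order depends on the lengths. Before division RPS29 had a mean of 53.4 units, below RPL7L1 (71.2 units, 3769 bases) and RPS27L (76.7 units). Per kilobase, the parents RPL26, RPL22 and RPS27 had 973, 114 and 634 units. RPL3L, a form of RPL3 made mainly in striated muscle, had 0 to 8 reads in a library and a mean of 0.197 units. It did not reach the mean of 1 unit set for testing, so 81 members were tested.

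Among themselves the members varied together across libraries. The first principal component of their log2 values held 49.2% of their variance, and 78 of the 81 members had a weight of the same sign on it. Such values for all genes or for genes of like level are not given here. Whether the family varies together more than those was not tested. The 3 members with the other sign were RPL26L1, RPS26 and RPS27L. Libraries of GC clone 4 were at one end, with scores of 2.47 with palmitic acid and 2.50 in control, and those of GG clone 2 were at the other, with -2.33 with palmitic acid and -1.78 in control. Of the members' total sum of squares, 54.3% lay between clones of 1 genotype and 23.3% between genotypes. Palmitic acid took 4.58%, and 17.8% remained within clones. Over all 13095 tested genes the shares were 61.4%, 19.9%, 8.17% and 10.6%. These shares are not divided by degrees of freedom. With 8 clones in 3 genotypes, differences between clones alone give the genotypes a share, and whether the share seen exceeds it was not tested. RPS4X was the steadiest member, with an SD of 0.11 over 16 libraries on the log2 scale, and RPL35A (0.43) and RPS29 (0.43) were the most variable.

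**Figure D2:**
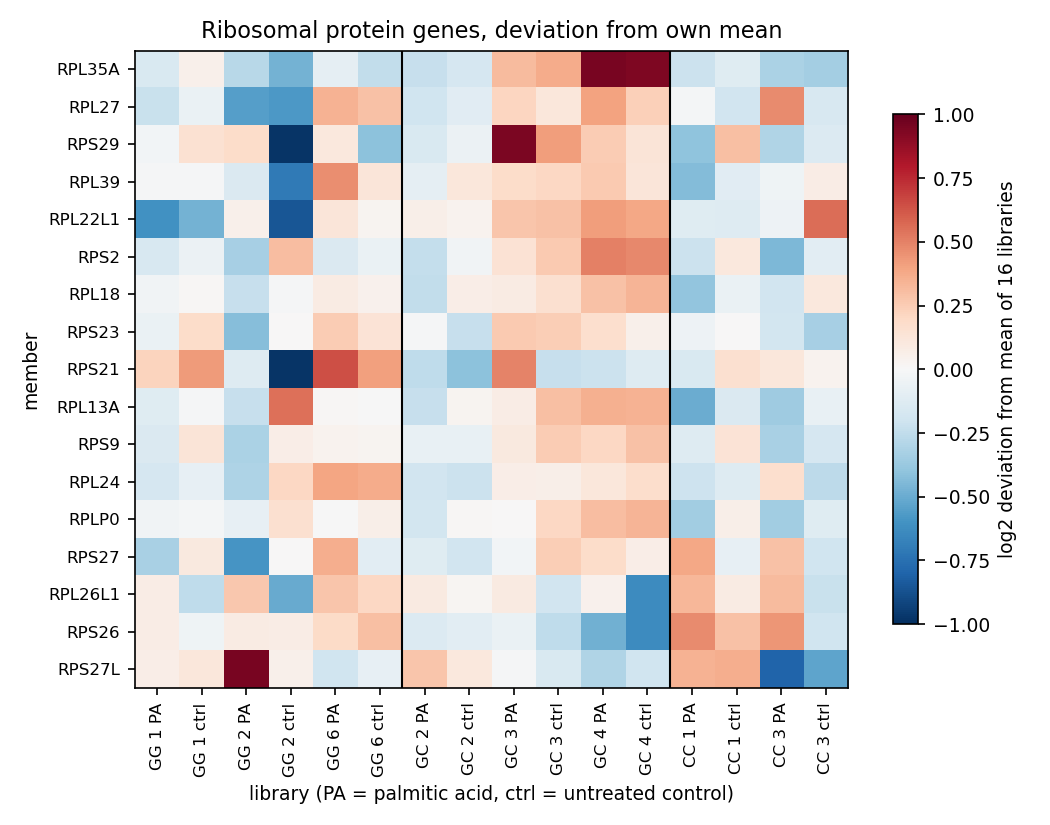
Log2 deviation of 17 of the tested members (rows, those with the calls and the highest and lowest values in the comparisons) from its own mean over 16 libraries (columns, palmitic acid left of control for each clone), from -1 in blue to 1 in red. Most rows share the columns' colour, red in GC clone 4 and blue in the palmitic acid library of GG clone 2, while RPL35A reaches 0.95 and 0.93 in the palmitic acid and control libraries of GC clone 4.

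Differences with palmitic acid were small for nearly all ribosomal protein mRNAs. Taken as the mean of the 3 genotypes, the median member differed by -0.04 on the log2 scale, against -0.01 for all tested genes. The median was -0.03 without GG clone 2, and ran between -0.08 without CC clone 3 and -0.02 without CC clone 1. Of the 81 members, 60 had a negative value, and 51.5% of all genes did. The differences stayed within 0.2 for 78 members (96.3%), against 70.1% of all genes, and ranged from -0.26 to 0.37. This comparison is not matched for level. The 2125 other genes past a level cut of 100 units were less spread than all tested genes in each library. Their share within 0.2 was not counted. Limma called 0 of the 81 members at an adjusted p of 0.05 and 6 of all genes (0.0458%). At an unadjusted p under 0.05 it found 2 members (2.47%) and 8.09% of all genes. The edgeR and DESeq2 tests on the recovered reads called 0 members, with 0.0153% and 0.843% of all genes called. None of these fits paired the libraries of a clone, so the spread between clones entered their tests. When each clone was compared with itself (limma with clone block), 3 members passed, 1 higher and 2 lower, and 14 (17.3%) had an unadjusted p under 0.05, against 34.1% of all genes. That fit called 18.9% of all genes, 9.33% higher and 9.52% lower, so 3 of 81 (3.7%) is below the share of genes called overall.

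RPL26L1, which encodes a protein nearly identical to RPL26 of the large subunit and lies on chromosome 5 (chr5:172958729-172969771, GRCh38), rose with palmitic acid. Its level with palmitic acid was 14.3, 16.5 and 16.5 in GG, 14.5, 14.4 and 14.0 in GC, and 17.2 and 17.0 in CC, in units and in the order of clone numbers given above. Its level in control was 11.3, 9.43 and 15.7 in GG, 13.8, 11.8 and 8.61 in GC, and 14.4 and 11.6 in CC. Treated values were higher in 8 of 8 clones, while 6.77% of all tested genes were. Across clones the groups overlapped only in that the controls of GG clone 6 and CC clone 1 lay above the lowest treated value. The log2 change was 0.37 ± 0.10 (SE with clone block, adjusted p = 0.0225), and without the block the adjusted p was 0.430. Each clone contributed between 0.07 and 0.78. The call was lost without GG clone 1, GC clone 3, GC clone 4 or CC clone 3, with adjusted p of 0.0503, 0.0508, 0.0605 and 0.101, and without GG clone 2 it remained at 0.0482 with a log2 change of 0.31. RPL26L1 was counted with 107 to 244 reads per library. RPL26 itself had 398 to 629 units with palmitic acid (median 480.2) and 428 to 639.7 units in control (median 535). Its log2 difference was -0.11 ± 0.07 (adjusted p = 0.297 with block), and whether the 2 genes differ in response was not tested.

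RPL18, a large-subunit protein encoded on chromosome 19 (chr19:48615328-48619536), fell. With palmitic acid RPL18 stood at 489, 426 and 529 in GG, 421, 529 and 613 in GC, and 380.0 and 438 in CC. RPL18 in control stood at 503, 496 and 515 in GG, 524, 559 and 635 in GC, and 478 and 537 in CC. It was lower in 7 of 8 clones, with GG clone 6 higher, and the groups overlapped, with GC clone 4 high under both conditions. The log2 change was -0.18 ± 0.05 (SE with clone block, adjusted p = 0.0383). Also on chromosome 19, RPS9 (chr19:54200742-54249003), a small-subunit protein involved in decoding fidelity, fell as well. With palmitic acid RPS9 stood at 319, 283 and 362 in GG, 337, 378 and 408 in GC, and 323 and 282 in CC. RPS9 in control stood at 387, 371 and 361 in GG, 335, 423 and 434 in GC, and 388 and 315 in CC. It was lower in 6 of 8 clones and nearly level in GG clone 6 and GC clone 2. The log2 change was -0.17 ± 0.05 (SE with clone block, adjusted p = 0.0494). Neither call held in the fit without the block (adjusted p = 0.676 and 0.677), and both were lost when any clone other than GG clone 6 was left out, with adjusted p of 0.0545 to 0.100 for RPL18 and 0.0687 to 0.129 for RPS9.

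The stalk of the large subunit recruits the translation factors that hydrolyse GTP, and RPLP0 is its base. With palmitic acid RPLP0 was at 1993, 1925 and 2043 in GG, 1795, 2052 and 2531 in GC, and 1605 and 1601 in CC. RPLP0 in control was at 2016, 2282 and 2129 in GG, 2057, 2355 and 2592 in GC, and 2122 and 1877 in CC. It was the only member lower in 8 of 8 clones, while 6.79% of all tested genes were. The log2 difference was -0.19 ± 0.06 and missed the threshold (adjusted p = 0.0577 with block). RPLP1 and RPLP2, which bind RPLP0 as dimers, differed by -0.01 ± 0.06 (adjusted p = 0.922) and 0.00 ± 0.05 (adjusted p = 0.965). RPLP1 had 509 to 861 units with palmitic acid (median 624) and 484 to 830.3 units in control (median 693), and RPLP2 had 375 to 657 units with palmitic acid (median 427) and 379 to 646 units in control (median 423).

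The most negative values of all belonged to RPL13A and RPS2, and neither passed. RPS2, at the mRNA entry of the small subunit, had 1409 to 2729 units with palmitic acid (median 1686) and 1779 to 2677 units in control (median 1966). Its log2 difference was -0.23 ± 0.08 (adjusted p = 0.0538 with block) and was negative in 7 of 8 clones. RPL13A, a large-subunit protein that can also act outside the ribosome, had 1291 to 2323 units with palmitic acid (median 1609) and 1641 to 2663 units in control (median 1837). Its value of -0.26 ± 0.09 (adjusted p = 0.0644 with block) was -0.17 without GG clone 2. In that clone RPL13A was at 1549 units with palmitic acid and 2663 units in control, the highest value of all libraries. RPSA, a small-subunit protein also known as a laminin receptor, differed by -0.18 ± 0.06 (adjusted p = 0.0689). RPS6, the substrate of S6 kinase, differed by -0.06 ± 0.08 (adjusted p = 0.637), and RPS27A, which is made as a fusion with ubiquitin, by -0.01 ± 0.06 (adjusted p = 0.923).

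The highest values after RPL26L1 belonged to RPS26, RPS21 and RPL27, and none of them passed. RPS26, a small-subunit protein at the mRNA exit whose loss causes Diamond-Blackfan anaemia, was with palmitic acid at 93.8, 94.6 and 102 in GG, 81.1, 85.0 and 63.8 in GC, and 124 and 121 in CC. RPS26 in control was at 86.3, 93.8 and 110.1 in GG, 82.9, 74.8 and 57.5 in GC, and 109 and 77.6 in CC. The log2 difference was 0.17 ± 0.06 (adjusted p = 0.0687 with block), and it rested in large part on CC clone 3, with 121 units after palmitic acid and 77.6 in control. Without that clone the difference was 0.09, and without CC clone 1 it was 0.25 and passed (adjusted p = 0.00809). RPL27, of the large subunit, had 238 to 483 units with palmitic acid (median 375) and 235 to 427 units in control (median 328). Its log2 difference was 0.15 ± 0.06 (adjusted p = 0.116 with block), and was 0.07 without CC clone 3. RPS21, of the small subunit, differed by 0.15 ± 0.11 (adjusted p = 0.391) and by 0.05 without GG clone 2, where it was at 239 units with palmitic acid and 132 in control.

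**Figure D3:**
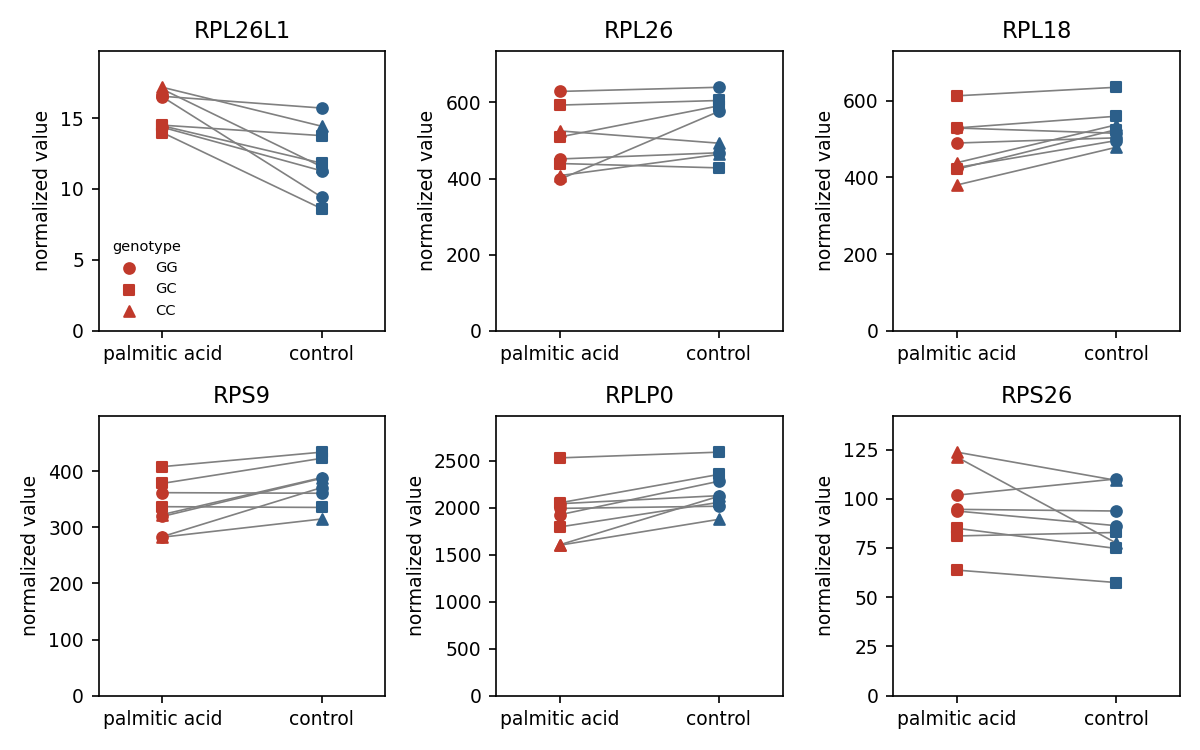
Normalized values (units, linear axes from 0) of 6 members in 16 libraries, palmitic acid left of control, with a line for each clone and a symbol for each genotype. Every line of RPL26L1 and RPLP0 has 1 direction, higher with palmitic acid for RPL26L1 and lower for RPLP0, whereas the lines of RPL26 and RPS26 go both ways.

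Within single genotypes 0 of 81 members were called with palmitic acid by limma, edgeR or DESeq2. Limma called 0% of all genes in GG, 0% in GC and 0.00764% in CC, edgeR 0% in each, and DESeq2 0.00766%, 0.0153% and 0%. With clone block it was again 0 of 81, against 0.84%, 1.54% and 2.3% of all genes. At an unadjusted p under 0.05, limma found 0 members in each genotype, against 1.7% of all genes in GG, 2.02% in GC and 2.11% in CC. With block it found 8 members in GG (9.88%, against 15.7% of all genes), 0 in GC (against 17.6%) and 11 in CC (13.6%, against 20.5%). Medians by genotype were -0.05 for GG, -0.04 for GC and -0.07 for CC. For GG the members ran from RPL28 (-0.30) to RPS29 (0.50), for GC from RPL32 (-0.16) to RPL26L1 (0.34), and for CC from RPS29 (-0.43) to RPS27 (0.48). Single clones moved several of these values. Without GG clone 2, RPL28 in GG was at -0.10 and RPS29 at 0.17, and without GG clone 6 RPL28 was at -0.54, and without GG clone 1 RPS29 was at 0.84. In GC, RPL32 was at -0.09 without clone 3 and -0.25 without clone 2, and RPL26L1 at 0.18 without clone 4. In CC, RPS29 was at -0.16 without clone 1 and -0.70 without clone 3. By clone, the median member differed by -0.11, -0.11 and 0.09 in GG clones 1, 2 and 6, by -0.06, -0.09 and -0.00 in GC clones 2, 3 and 4, and by -0.15 and 0.06 in CC clones 1 and 3. Clones of GG and of CC thus lay on both sides of 0, and without CC clone 1 the CC median was 0.06. The GG median was -0.01 without GG clone 2, -0.03 without GG clone 1 and -0.09 without GG clone 6.

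The test of a difference in response between genotypes likewise called 0 of 81 members, by limma with or without block, edgeR or DESeq2. All-gene shares by limma were 0.00764% for GG minus CC, 0.00764% for GC minus CC and 0% for GG minus GC, the same with block, and 0% by edgeR and DESeq2. Without block, 0 members had an unadjusted p under 0.05, against 0.397%, 0.214% and 0.199% of all genes. With block there were 11 members for GG minus CC (13.6%, against 5.86% of all genes), 2 for GC minus CC (2.47%, against 4.68%) and 0 for GG minus GC (against 1.75%). RPS29, a small-subunit protein that binds zinc, had the highest value in both comparisons with CC and RPS27 the lowest. These 2 comparisons share the CC libraries. With palmitic acid RPS29 was at 50.3, 58.2 and 55.1 in GG, 46.0, 98.7 and 61.1 in GC, and 38.6 and 41.4 in CC. RPS29 in control was at 56.9, 25.7 and 38.5 in GG, 49.0, 68.5 and 56.0 in GC, and 63.1 and 46.5 in CC. The control of GG clone 2 was the lowest of all. The response in GG minus that in CC was 0.93 ± 0.46 (SE, adjusted p = 1.000) and 0.60 without GG clone 2, and in GC minus CC it was 0.62 ± 0.46 (SE, adjusted p = 1.000) and 0.35 without CC clone 1. With palmitic acid RPS27 was at 179, 148 and 288 in GG, 206, 220.3 and 255 in GC, and 293 and 274 in CC. RPS27 in control was at 239.9, 225 and 208 in GG, 196, 266 and 234 in GC, and 212 and 195 in CC. It was higher after palmitic acid in GG clone 6, GC clones 2 and 4 and both CC clones, and lower in GG clones 1 and 2 and GC clone 3. Its response in GG minus CC was -0.67 ± 0.32 (SE, adjusted p = 1.000) and in GC minus CC -0.51 ± 0.32 (SE, adjusted p = 1.000). Between GG and GC, RPL39, which lines the exit tunnel, had the highest difference in response, 0.33 ± 0.31 (SE, adjusted p = 1.000), and RPS23, near the decoding centre, the lowest, -0.30 ± 0.25 (SE, adjusted p = 1.000). Without GG clone 2 they were 0.20 for RPL39 and -0.18 for RPS23.

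Between genotypes, most members had higher mean values in GC than in CC clones, and none passed the test. The median member was higher by 0.22 (log2) in GC than in CC with palmitic acid and by 0.17 in control, with 70 and 76 of 81 members positive. All-gene medians were 0.01 and -0.02, and 49.3% and 52.1% of all genes were negative, against 13.6% and 6.17% of the members. GC clone 2 lay near the CC clones in its ribosomal protein share of recovered reads. The share was 4.74% with palmitic acid and 5.05% in control there. In CC clone 1 it was 4.54% and 5.04%, and in CC clone 3 it was 4.70% and 4.99%. For GG against CC the medians were 0.08 with palmitic acid and 0.06 in control, and for GG against GC they were -0.11 and -0.11. These comparisons share libraries pairwise. In each of the 6, limma, edgeR and DESeq2 called 0 of 81 members. Limma called 0.00764% of all genes with palmitic acid and 0% in control for GG against CC and for GC against CC, and 0% both times for GG against GC, edgeR called 0% in all 6, and DESeq2 called 0.00766% with palmitic acid and 0% in control for GG against CC, 0.161% and 0.0153% for GC against CC, and 0.161% and 0.153% for GG against GC. At an unadjusted p under 0.05, limma found 8 members for GC against CC with palmitic acid, with 1096 of all 13095 genes there, and 1 or 2 members (1.23 or 2.47%) in each of the others, against 1.19 to 6.65% of all genes. The 8 members were 9.88% of those tested, and the 1096 genes were 8.37%. Control and palmitic acid libraries of the same clones share 1 estimate of the spread, and a clone's libraries are alike, which makes these p-values too small. Without GC clone 4 the GC against CC medians were 0.14 with palmitic acid and 0.11 in control, and the control median was 0.29 without GC clone 2. Without GG clone 6 the GG against CC median with palmitic acid was -0.00, and without CC clone 3 that in control was -0.02. Without GG clone 2 they were 0.17 with palmitic acid and 0.13 in control. The GG against GC medians were -0.01 with palmitic acid and -0.04 in control without GC clone 4, -0.02 and -0.04 without GG clone 2, and -0.21 and -0.21 without GC clone 2, and with palmitic acid -0.24 without GG clone 6.

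RPS26 was the member lowest in GC relative to CC, with log2 differences of -0.68 ± 0.19 (SE, adjusted p = 0.58) with palmitic acid and -0.38 ± 0.19 (SE, adjusted p = 0.999) in control. GC clones had 63.8 to 85.0 units of it after palmitic acid, and CC clones had 124 and 121. These values did not overlap, but RPS26 was picked as the lowest member, and only 3 clones stand against 2. How many of all tested genes separate in this way was not counted. In control GC had 57.5 to 82.9 units and CC 109 and 77.6, with overlap. The control difference was -0.13 without CC clone 1, -0.23 without GC clone 4 and -0.62 without CC clone 3. RPS26 was also the highest in GG against GC, at 0.34 ± 0.17 (SE, adjusted p = 0.82) with palmitic acid and 0.44 ± 0.17 (SE, adjusted p = 0.75) in control, and without GC clone 4 at 0.22 with palmitic acid and 0.29 in control. RPL24, at a bridge between the subunits, was highest for GG against CC in control, at 0.36 ± 0.22 (SE, adjusted p = 1.000). It had 264 to 430.0 units with palmitic acid (median 317) and 274 to 425 units in control (median 325).

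The paralogs RPL22L1 and RPS27L had SDs of 0.38 and 0.40 over the 16 libraries on the log2 scale, and their parents RPL22 and RPS27 had 0.24 and 0.26. RPL22L1, which RPL22 is known to hold down in mouse cells, was with palmitic acid at 10.7, 17.2 and 18.1 in GG, 17.4, 20.2 and 22.4 in GC, and 15.3 and 16.1 in CC. RPL22L1 in control was at 11.8, 8.95 and 16.9 in GG, 17.0, 20.4 and 21.8 in GC, and 15.1 and 24.7 in CC. The log2 difference in control was -0.65 ± 0.29 (SE, adjusted p = 1.000) for GG against CC and -0.67 ± 0.26 (SE, adjusted p = 0.749) for GG against GC, and -0.44 and -0.46 without GG clone 2. For GG against CC it was -0.30 without CC clone 3 and -0.99 without CC clone 1. RPL22 had 181 to 268 units with palmitic acid (median 244) and 183 to 286 units in control (median 258). RPS27L, a target of p53, was with palmitic acid at 77.5, 143 and 64.3 in GG, 89.8, 73.3 and 59.7 in GC, and 94.1 and 42.3 in CC. RPS27L in control was at 79.9, 76.6 and 69.7 in GG, 79.6, 66.4 and 64.1 in GC, and 95.0 and 51.1 in CC. For GG against CC with palmitic acid it gave 0.50 ± 0.37 (SE, adjusted p = 0.999), but -0.07 without CC clone 3 and 0.16 without GG clone 2. RPS27 in the same comparison gave -0.52 ± 0.23 (SE, adjusted p = 0.999), with -0.32 without GG clone 2 and -0.80 without GG clone 6. The other related members did not pass with palmitic acid. RPL7L1 and RPL7 differed by 0.09 ± 0.05 and -0.04 ± 0.06 (adjusted p = 0.266 and 0.622 with block), and RPL3 and RPL10 by -0.11 ± 0.06 and -0.02 ± 0.07 (adjusted p = 0.264 and 0.88).

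Some members stood apart in both libraries of 1 clone. RPL35A, a large-subunit protein whose loss causes Diamond-Blackfan anaemia, lies near the end of the long arm of chromosome 3 (chr3:197949980-197956610). RPL35A with palmitic acid was at 267, 244 and 278 in GG, 253, 369 and 572 in GC, and 256 and 238 in CC. RPL35A in control was at 307, 213 and 249.9 in GG, 264, 383 and 565 in GC, and 272 and 234 in CC. GC clone 4 was highest and GC clone 3 next, and the other 6 clones lay below both. RPL35A gave 0.61 ± 0.32 (SE, adjusted p = 0.999) for GC against CC in control and 0.33 without GC clone 4. It gave -0.52 ± 0.29 (SE, adjusted p = 0.835) for GG against GC with palmitic acid and -0.22 without that clone, or -0.81 without GC clone 2. The 35 other tested genes within 5 Mb of RPL35A had a median deviation of 0.48 in GC clone 4, against 0.06 for the 702 other genes of chromosome 3 there, and between -0.16 and 0.09 in the other 7 clones. RPL22L1, also on chromosome 3, deviated by 0.40 in GC clone 4, and the 22 other tested genes within 5 Mb of it by a median of 0.37. In GG clones 1 and 2 RPL22L1 deviated by -0.54 and -0.40, and these neighbours by -0.04 and -0.11.

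Chromosome 11 carries RPS3, RPL27A, RPLP2, RPS13 and RPS25, and all of them were high in GC clone 4. Their deviations, as the mean of the clone's 2 libraries, were 0.63, 0.60, 0.56, 0.42 and 0.29. The median over all members was 0.25 in both libraries of this clone, with 76 members above their own mean with palmitic acid and 74 in control, so RPS25 lay near the level of the family. The 697 other genes of chromosome 11 had a median of 0.23 in this clone and between -0.07 and 0.05 in the others. The part that the shift of neighbouring genes has in these levels was not tested. In the same clone RPS26, on chromosome 12, was at -0.56, with a median of -0.01 for its neighbours. RPS29 deviated by 0.68 in GC clone 3 and its neighbours by 0.02. Deviations past 0.4 were found for 13 members in GG clone 2, 10 in GC clone 4, 3 in GG clone 6 and 2 in CC clone 3. There was 1 each in GG clone 1, GC clone 3 and CC clone 1, and 0 in GC clone 2. The share of all tested genes past 0.4 was not counted. In GC clone 4 the interquartile range over all tested genes was 0.48 with palmitic acid and 0.49 in control, against 0.15 and 0.21 for the members. In GG clone 2 it was 0.47 and 0.50, against 0.21 and 0.50.

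Other genes of the same machinery were read from lists chosen by their known roles. Without block, limma, edgeR and DESeq2 each called 0 of the 99 tested genes of these lists and of the marker lists, with 3 at an unadjusted p under 0.05 in each (limma called 0.0458% of all genes), and the counts that follow are from the fit with clone block (18.9%). Of 19 translation factors and other mRNAs with a TOP run, 0 passed, the median was -0.06 and 14 were negative. PABPC1, the poly(A)-binding protein, had the smallest p of them, at -0.16 ± 0.07 (SE, adjusted p = 0.109). Non-coding hosts of small nucleolar RNAs, whose transcripts also begin with TOP runs, had a median of -0.13, and 3 of 9 fell while 0 rose. SNHG1 fell by 0.26 ± 0.06 (SE, adjusted p = 0.0181), SNHG16 by 0.24 ± 0.06 (0.0185) and GAS5 by 0.24 ± 0.07 (0.0286). All 3 calls were lost without GC clone 3 or CC clone 3, those of SNHG16 and GAS5 also without GG clone 1, and that of GAS5 without GC clone 2.

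Ribosome assembly genes mostly had positive values. Of 39, 35 had positive values with a median of 0.13, and 4 rose while 0 fell. The fit with clone block called 9.33% of all genes higher and 9.52% lower. LSG1, a GTPase of late large-subunit maturation, rose by 0.25 ± 0.07 (SE, adjusted p = 0.0238). DKC1, the pseudouridine synthase of small nucleolar RNPs, rose by 0.23 ± 0.06 (adjusted p = 0.0306), UBTF, a factor of RNA polymerase I, by 0.16 ± 0.05 (0.0409) and NOLC1, a nucleolar phosphoprotein, by 0.19 ± 0.06 (0.0486). The calls of LSG1, DKC1, NOLC1 and UBTF were each lost without GG clone 1, GC clone 3, GC clone 4 or CC clone 3, those of DKC1, NOLC1 and UBTF also without GG clone 2, those of NOLC1 and UBTF without GC clone 2, and that of UBTF without GG clone 6, with adjusted p up to 0.194. The median was negative in GG clone 6 alone (-0.15), where the median ribosomal protein differed by 0.09. It was highest in GC clone 4 (0.30) and CC clone 3 (0.25), where the ribosomal protein medians were -0.00 and 0.06. A relation between these lists was not tested. Of 16 regulators of mTORC1 and of ribosome production, 1 rose and 2 fell, a share near the 18.9% of all genes called. DDIT4, an inhibitor of mTORC1, rose by 0.61 ± 0.13 (SE, adjusted p = 0.00779). EIF4EBP2, a repressor of cap-dependent translation, fell by 0.36 ± 0.06 (adjusted p = 0.00364), and DEPTOR, another mTOR inhibitor, fell by 0.48 ± 0.10 (adjusted p = 0.00914). These 3 calls held in all 8 fits that left out 1 clone.

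Of the 8 hepatocyte markers, 5 fell with clone block and the median was -0.36, with -1.29 in CC clone 3 and -0.40 to -0.08 in the other clones. That fit called 9.52% of all genes lower. APOA1, an apolipoprotein, fell by 0.45 ± 0.10 (SE, adjusted p = 0.0104), or by 0.27 without CC clone 3 (adjusted p = 0.0210), and ALB (albumin), TF (transferrin), AFP and HNF4A fell as well. The call of ALB was lost without CC clone 3 (adjusted p = 0.0530), and that of HNF4A without any clone other than GG clone 2 and CC clone 1. Among the markers of other liver cells, PECAM1 fell by 0.59 ± 0.12 (SE, adjusted p = 0.00621) and the other 3 tested did not pass. The part of these marker changes in the ribosomal protein values was not tested.

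**Figure D4:**
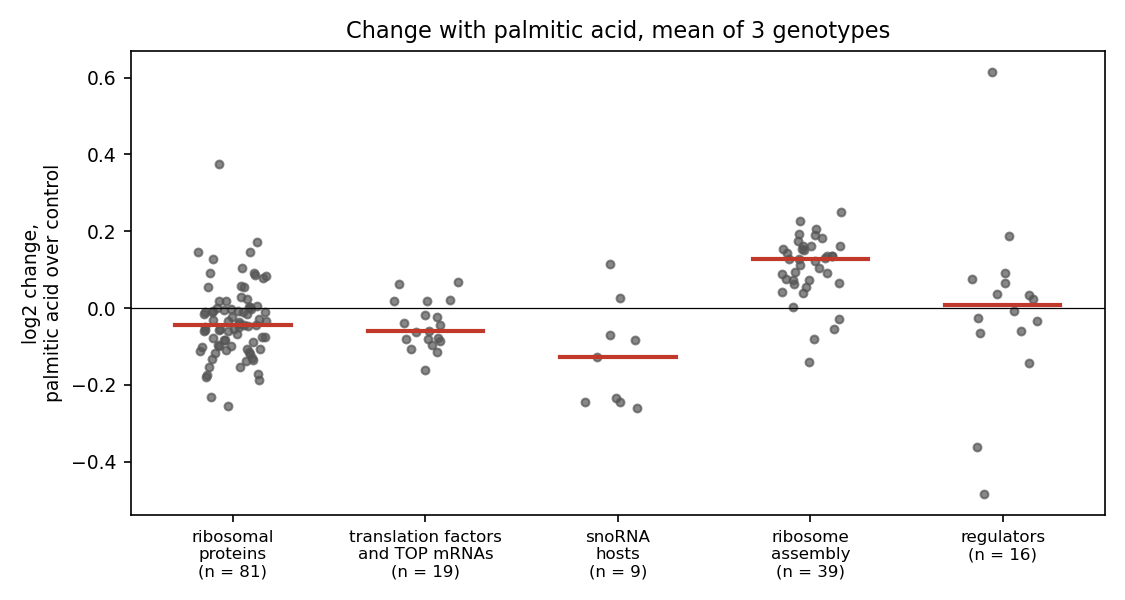
Log2 change with palmitic acid over control, as the mean of 3 genotypes, for each tested gene (points) of 5 lists, with the median as a red line. The medians lie at -0.04 for ribosomal proteins, -0.06 for translation factors and TOP mRNAs, -0.13 for hosts of small nucleolar RNAs, 0.13 for ribosome assembly genes and 0.01 for regulators.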

How the data were processed

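RNA of 16 libraries, from 3 GG, 3 GC and 2 CC clones with and without palmitic acid, was rRNA-depleted and made into directional libraries, per the labels' protocols. Trimmomatic 0.38, RSEM 1.3.0, Bowtie2 and edgeR on hg38 were used by the authors, per the submitters' processing notes. Not given in the sources used here are the annotation, gene filter, strand setting and any rounding. The authors deposited a normalized signal per gene. Its values were whole multiples of 1 step per library (100% within 0.01 reads), so reads could be recovered; the table equals CPM with TMM scaling. A count test was therefore run only as an alternative.

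Log2(value + 0.5) was fitted for 13095 genes averaging 1 unit or more with limma 3.58.1 (mean-variance trend, two-sided, 6 group means), and p was adjusted by Benjamini-Hochberg over all of them at 0.05. A fold change on this scale understates that of low genes. n counts clones, and p-values of the fits without block measure the spread between clones. A further fit had a replicate block for the clone, which gave both libraries of its number. Their deviations from the group means correlated at 0.523 to 0.857. With the block, p-values measure the spread of the palmitic acid change over clones. The fits without it, edgeR and DESeq2 included, leave out this pairing, which tends to make their palmitic acid p-values too large. Alternatives were edgeR 4.0.16 and DESeq2 1.42.0 on recovered reads (R 4.3.3), a pseudocount of 1, no filter, other scalings, single treatments and leaving out each clone. Over 120 pairs of libraries chi-square per degree of freedom was 13.8 or more, so no library was a copy. Scripts were tested on simulated data.

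The members and lists were chosen with earlier results of these data known. Named are members called over genotypes, the 4 highest and 4 lowest changes there, the highest and lowest in each other comparison, the stalk, paralogs with parents, RPSA, RPS27A, RPS6, the 5 highest and 3 lowest levels per kilobase, and up to 3 genes of each other list by smallest p with block. Members outside that rule (RPL28, RPL32, RPS3, RPL27A, RPS13, RPS25, RPS4X, RPL7A, RPL9 and RPL4) were named after their values were seen. Positions are from GENCODE on GRCh38. Results of some members and related genes are not reported here.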

Additional observations from a re-analysis of the deposited data

Results flagged for a closer look

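Of 19 members whose 8 clone changes with palmitic acid were checked for a value far from the others, 5 had one; chance gives about 1 in 20 for groups not chosen by their values, whereas many of these members were named for high or low changes. In GG clone 2 RPL13A differed by -0.78 on the log2 scale, while the other 7 clones lay between -0.35 and 0.01. In the same clone RPL22L1 differed by 0.91, with -0.61 to 0.09 in the others, and RPS27L by 0.90, with -0.27 to 0.17 in the others. In that clone the treated library was the one far from the others for RPS27L (143 units), and the control library for RPL13A and RPL22L1 (2663 and 8.95 units). In CC clone 3 RPS26 differed by 0.64, against -0.11 to 0.18 in the others, and RPL27 by 0.63, against -0.16 to 0.17.

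For RPL39, GG clones 2 and 6 were higher with palmitic acid (by 0.57 and 0.34) and GG clone 1 was level (0.00). Both CC clones were lower (-0.32 and -0.12), and GC clones 2, 3 and 4 differed by -0.21, -0.03 and 0.14. The control of GG clone 2, at 446 units, was the lowest of all libraries. The response of GG minus that of CC was 0.52 ± 0.35 (SE); the interaction term did not pass (limma, adjusted p = 1.000, and 0.797 with clone block).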

How the results depend on the processing

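With the clone as a replicate block, 3 members were called over genotypes in place of 0, and leaving out 1 clone in that fit moved the count between 0 and 5: 5 without GG clone 6, 3 without CC clone 1, 1 without GG clone 1, GG clone 2 or GC clone 2, and 0 without GC clone 3, GC clone 4 or CC clone 3. The 1 member called without GG clone 1 was RPL38. The 3 without CC clone 1 were RPL26L1, RPL27 and RPS26. Block fits without CC clone 1 also called 2 members within CC and 2 for the response of GG minus CC, and 0 in the other 7 leave-outs; the lone CC clone is then assumed to vary like the others. The median member change within CC ran from -0.153 to 0.0602 over the leave-outs, the median response of GG minus CC from -0.0456 to 0.129, and that of GC minus CC from -0.0750 to 0.111, each turning sign without CC clone 1, and GG minus CC also without GG clone 6 (-0.0206). That of GG minus GC, near 0 at 0.00769, ran from -0.0603 without GG clone 6 to 0.0291 without GC clone 4 (0.0262 without GG clone 2), was negative also without GC clone 2 or GC clone 3, and turned to -0.000121 under edgeR and -0.000591 under DESeq2. RPS27L for GG against CC with palmitic acid ran from -0.0723 without CC clone 3 to 1.07 without CC clone 1. The block changed no other call. Under edgeR, DESeq2, another pseudocount, no filter, other scalings and single treatments, all other medians kept their direction and all counts their side of the threshold. The cause of these shifts was not tested.

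With 2 or 3 clones a group, differences the size of those between clones could not be resolved. Every tested member had at least 107 reads in each library.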
